A study of Zea mays with 24 samples.

Results

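The basic helix-loop-helix (bHLH) transcription factors of maize leaves are described here. A gene was counted where its name in the deposited table holds "bHLH-transcription factor" or its description holds "bHLH", and where its FPKM (fragments per kilobase of gene length, scaled to library size) was at least 0.5 in at least 3 of 24 libraries. Of the 46430 genes of the table, 211 matched by name or description and 110 of these reached the minimum level. The other 101 did not, and 37 of the 211 were at 0 in every library. Of the 110 genes, 79 carried the name and 31 were found by the description only. The transcription factor family column of the table gave HLH for 74 of the 110, another family for bHLH133 (U-box) and bHLH103 (Asp), and no family for 34, so a helix-loop-helix domain was not stated for every gene that the rule took in. Another 12 genes of the HLH family were not matched by the rule, and 6 of them reached the minimum level. At the minimum, the 8 genes that reached it in exactly 3 libraries had means of 0.132 to 0.42 FPKM over the 24 libraries, and the 9 genes that reached it in 2 libraries and were left out had means of 0.0686 to 0.28 FPKM.

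The study compared Y7-1, a T4 line of the maize inbred line Ye478 that carries 1 insertion of a construct with *ZmPMP3g* (a small membrane protein gene) under 3 copies of the CaMV 35S promoter, with untransformed Ye478 (Y478). Y7-1 is thus 1 transformation event, and effects of its insertion site cannot be told apart from those of the construct. Each line was grown under control (70% moisture of the pot mix), control with exogenous ABA (control-exogenous ABA, a foliar spray of 15 mg/L abscisic acid, the hormone that signals water shortage), moderate drought (50% moisture or less) and moderate drought with the same spray (moderate drought-exogenous ABA). The second fully expanded leaf from the top was taken 9 days after the mix had reached 50%, from 3 plants per group, and each of the 24 libraries was 1 plant. The gene model of *ZmPMP3g* itself is not given in the sources used here. The study names Zm00001d024778, described as the hydrophobic protein RCI2B, as a homolog. It had 80.08 to 380.8 FPKM in Y7-1 without drought, against 194.6 to 485.3 FPKM in Y478, and 572.1 to 3435 FPKM in Y7-1 under drought, against 1240 to 3233 FPKM in Y478. The lines overlapped in both cases, and since it is a homolog it does not check which libraries carry the construct.

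The libraries held 15762667 to 18428177 reads on genes, as recovered from the FPKM values, and 1 read on a gene of 1 kilobase was worth 0.0502 to 0.0734 FPKM. Zein genes of the kernel were at 0 in every library for 14 of 16 genes (at most 0.351 FPKM summed), and Casparian strip genes of the root summed to 0.064 to 2.95 FPKM. Summed C4 genes of the mesophyll were at 3555 to 14624 FPKM. One library stood apart, the one labelled Y7-1 moderate drought replicate 3. A gene was taken as read at 1 FPKM or more, and as read only in 1 line where, under the other 3 treatments, it was read there and under 0.1 FPKM in the other line, with at most 1 library of each line excepted. Of 125 genes read only in Y7-1 it read 0, where replicates 1 and 2 of its group read 107 and 109. Of 74 genes read only in Y478 it read 68, where replicates 1 and 2 read 0 and 4 and the Y478 moderate drought libraries 68 to 70. At the *ZmPMP3g* homolog it had 3435 FPKM, where the other 5 Y7-1 drought libraries had 572.1 to 1634 FPKM and those of Y478 1240 to 3233 FPKM. That value lies above both lines and does not tell the line of the plant. In both gene sets the library read like a Y478 library, against its label. Whether it is a Y7-1 plant is in doubt and was not tested. Every Y7-1 moderate drought value and every average includes it unless it is said to be left out. All 24 libraries share 1 estimate of the spread per gene in the fit. The library thus also enters the SE and adjusted p of every other comparison, and those are not given without it. None of the bHLH genes is in either set. Counts of the comparisons that use its group, and the averages of the genes described, are given with and without it.

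Proteins of the bHLH family bind DNA as pairs. The basic stretch touches the DNA, usually at the E-box, and the helices join the partners, which can be like or unlike. In plants the family holds the phytochrome-interacting factors of light responses, the MYC factors of jasmonate signalling, regulators of iron uptake, of stomata and root hairs, and of brassinosteroid growth. The maize names number the genes within maize, whereas the descriptions use the numbering of Arabidopsis proteins, so that maize bHLH152 is described as a relative of Arabidopsis bHLH69. Roles below are those known in Arabidopsis. No sequences are shown, and genes of 1 clade can share reads with near copies, since the treatment of reads that map to several places is not given in the sources used here.

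bHLH genes were mostly expressed at low to moderate levels. The mean over 24 libraries was under 1 FPKM for 27 genes, 1 to 10 FPKM for 62, 10 to 50 FPKM for 20 and above 50 FPKM for 1. The median of these means was 3.34 FPKM, against 4.96 FPKM over all 23978 genes at the same minimum level. In 64 of the 110 genes every library was at 0.5 FPKM or more. The highest level was that of bHLH118, a relative of bHLH104, which in Arabidopsis activates the response to iron shortage (mean 76.0 FPKM, range 30.1 to 116 FPKM). Another bHLH104 relative, bHLH128, followed (43.7 FPKM), then bHLH172 (32.3 FPKM), a relative of ILR3, which acts in the same response. The steadiest gene over the 8 groups was bHLH99, at 6.52 to 12.9 FPKM in the 24 plants (SD of the 8 group means 0.0775 on the log2 scale), and the most variable was bHLH152 (SD 1.92).

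The 110 genes lay on all 10 chromosomes, with 16 on chromosome 1, 14 each on chromosomes 5 and 7, and 1 on the unplaced contig B73V4_ctg14. That contig name belongs to the B73 version 4 assembly, whose coordinates the table uses. The neighbours Zm00001d039271 (mean 10.7 FPKM) and bHLH46 (1.90 FPKM) lie 7737 bases apart on chromosome 3 and differed in level.

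Sorting the genes by their descriptions placed 63 of them in 11 groups of known roles and left 47 with no specific description or another one. In the map of these genes over the libraries, the row of bHLH152 differed with the line and both HECATE rows with the water supply.

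**Figure D1:**
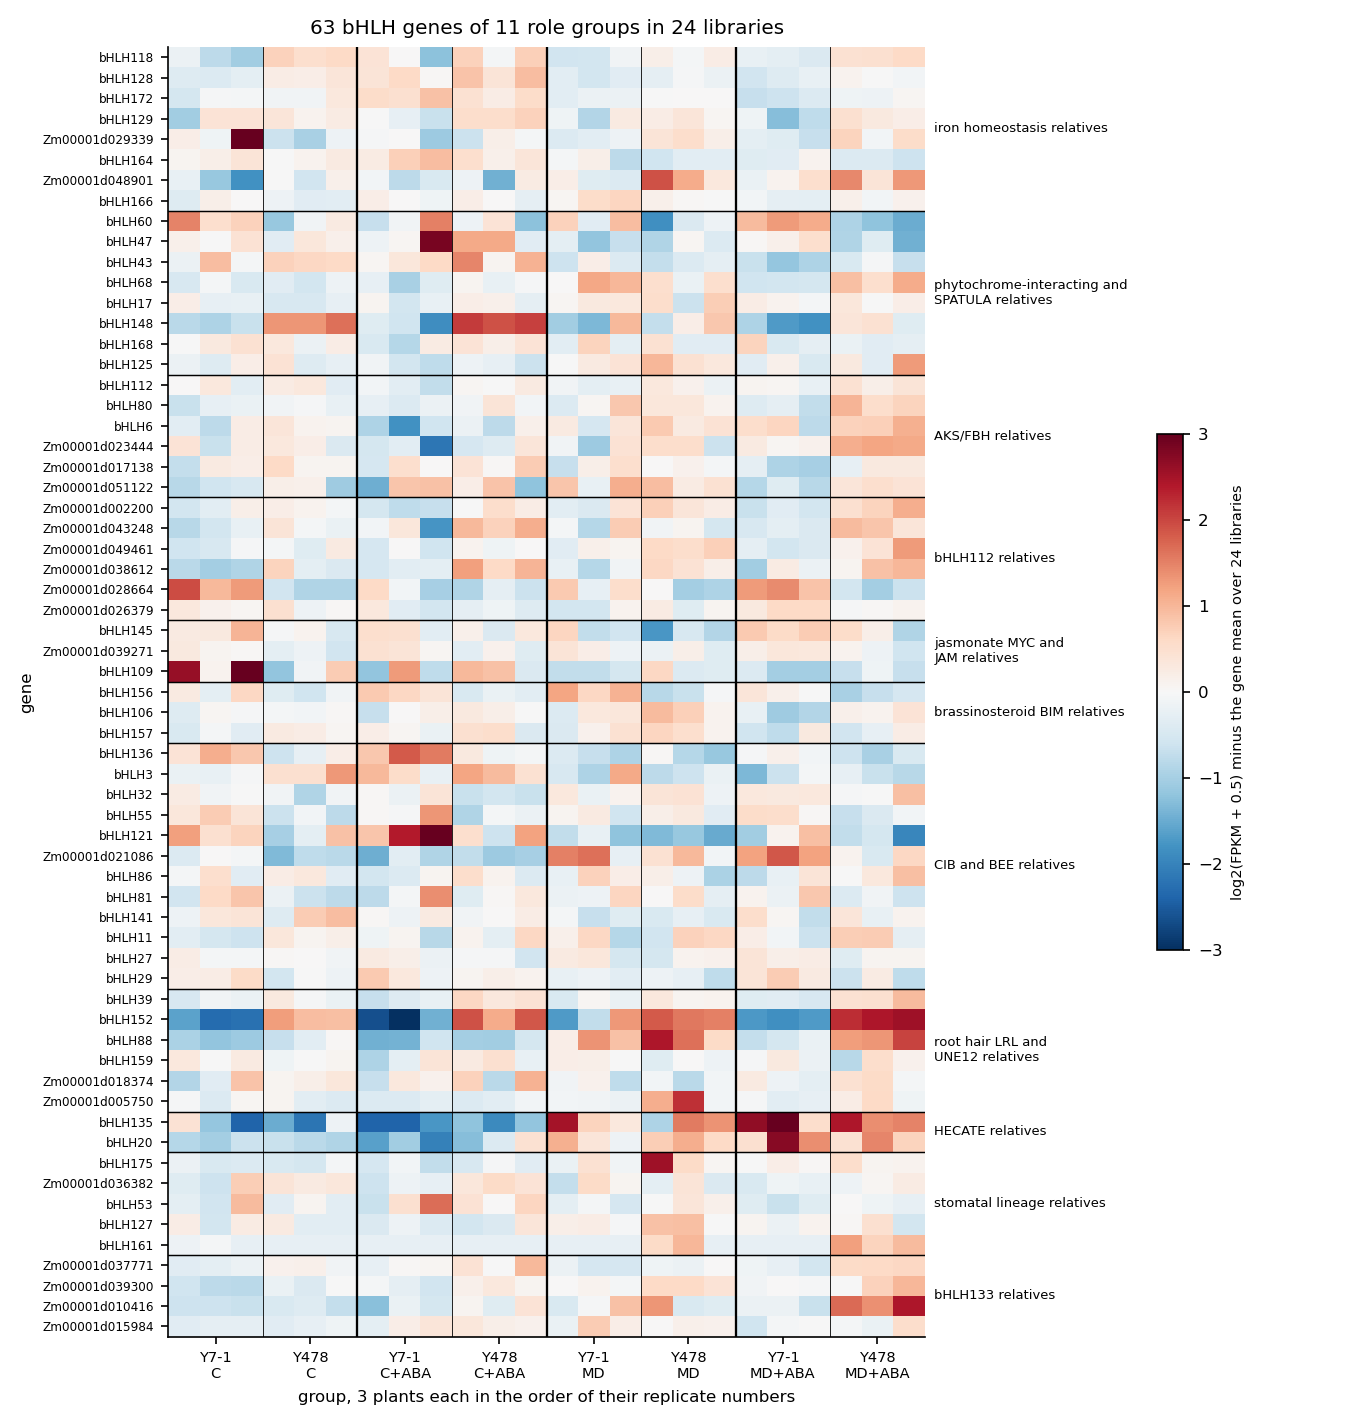
Level of the 63 bHLH genes of the 11 role groups (rows) in the 24 libraries (columns, in 8 groups of 3 plants, C for control and MD for moderate drought). Colour is log2(FPKM + 0.5) minus the gene's mean over the 24 libraries. The row of bHLH152 is blue in Y7-1 and red in Y478 except for the last Y7-1 column under MD, and bHLH135 and bHLH20 are red under MD with and without ABA in most columns.

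The first comparison asks which bHLH genes differ between the overexpression line and its parent. The differences over the 4 treatments were in both directions, with bHLH152, bHLH25, bHLH148, bHLH5 and Zm00001d028916 at the lower end in Y7-1, and bHLH54, bHLH38, Zm00001d028664, bHLH60 and bHLH121 at the upper end. Of these, bHLH54 and bHLH38 reached the minimum of 0.5 FPKM in no Y478 library and Zm00001d028664 in 1. The place of these genes at the upper end follows in part from the minimum and is not read as a result. Averaged over the treatments, 53 of the 110 genes passed the test (adjusted p under 0.05 in limma, a fit of log2(FPKM + 0.5) over all genes), 17 of them higher and 36 lower in Y7-1 than in Y478. That is 48.2% of the bHLH genes, against 48.9% of all tested genes, so the share was close to the background. Of all tested genes 24.6% were higher and 24.3% lower. The median log2 fold change was -0.18 over the bHLH genes and 0.000184 over all tested genes. Of the 110 genes, 6 reached the minimum of 0.5 FPKM in no Y478 library (bHLH54, bHLH38, bHLH108, Zm00001d018603, bHLH51 and bHLH105) and 4 in no Y7-1 library (Zm00001d021344, bHLH127, Zm00001d005750 and bHLH161). These were taken in through 1 line only, so their line calls (4 and 2 genes) follow in part from the minimum and are not read as results. Without the library that stood apart, 59 passed (20 higher and 39 lower, background 51.8%, or 25.9% in each direction). No gene had all 12 Y7-1 plants outside the range of the 12 Y478 plants, against 0.897% of all tested genes. Without that library 4 of 110 did (background 5.52%), namely bHLH152, bHLH5 and Zm00001d028916, lower in Y7-1, and bHLH38, higher, which reached the minimum in Y7-1 only.

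Within the treatments, 11 genes passed under control (5 higher and 6 lower in Y7-1, 10.0% of the bHLH genes, against a background of 12.2% of all tested genes, 5.63% higher and 6.57% lower), and 17 under control-exogenous ABA (5 higher and 12 lower, 15.5%, background 22.0%, or 10.5% higher and 11.5% lower). Under moderate drought 3 passed (1 higher and 2 lower, 2.73%, background 1.16%, or 0.413% higher and 0.742% lower), and without the library that stood apart 12 (4 higher and 8 lower, background 12.8%, or 5.68% higher and 7.11% lower). Leaving out Y7-1 replicate 1 or 2 or Y478 replicate 1 or 2 under moderate drought left 0 of the 3. The shares of all tested genes on these removals were not counted. Under moderate drought-exogenous ABA 34 passed (10 higher and 24 lower, 30.9%, background 28.1%, or 13.8% higher and 14.3% lower). The plot of shares sets these beside all genes.

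**Figure D2:**
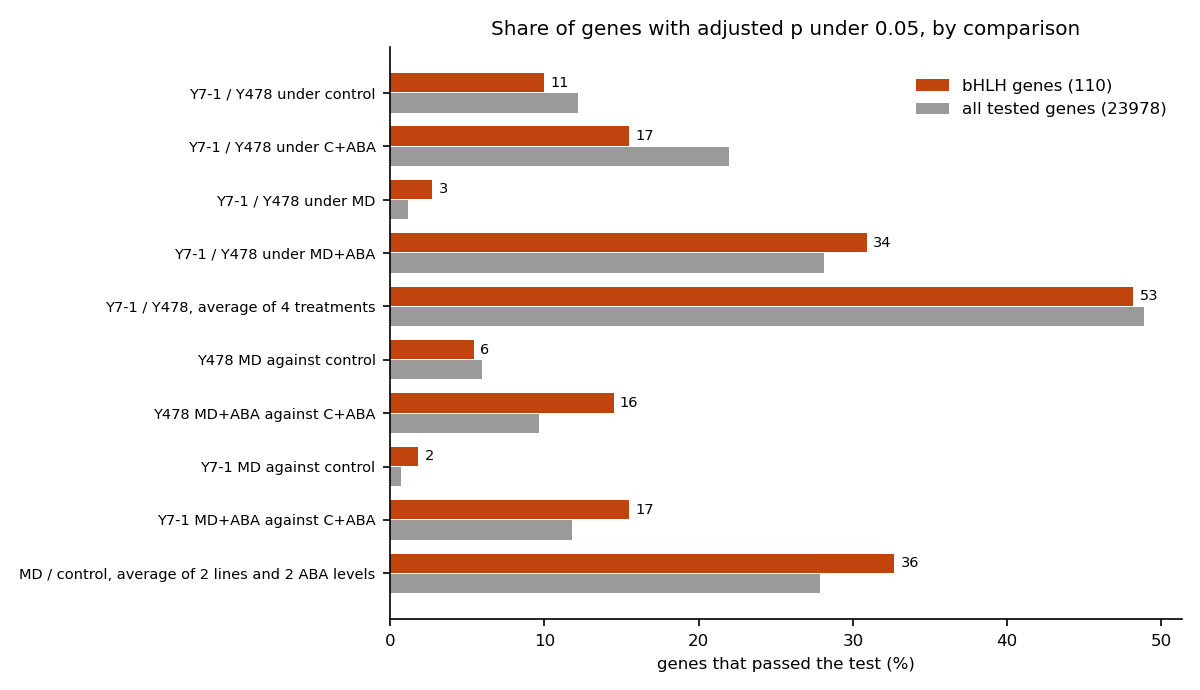
Share of genes with an adjusted p under 0.05 (x axis, percent) in each line and drought comparison (rows) for the 110 bHLH genes (upper, red bars, with their number) and all 23978 tested genes (lower, grey bars), all libraries included. MD is moderate drought and C is control. The 10 rows are the line and drought comparisons. In them the bHLH share ran from 1.82% (Y7-1 MD against control) to 48.2% (average of the lines), and the widest gap below the background was under control with ABA, at 15.5% against 22.0%.

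bHLH152 (Zm00001d016873, chromosome 5, 178968180 to 178971530, minus strand) had the largest difference between the lines. Its description is that of bHLH69, one of the LRL factors of root hair growth. Under control it had 2.67, 1.44 and 1.56 FPKM in Y7-1, against 22.6, 17.8 and 17.6 FPKM in Y478. With ABA under control the values were 1.05, 0.361 and 3.07 FPKM in Y7-1, against 35.5, 20.4 and 34.6 FPKM in Y478. These groups did not overlap. Under moderate drought Y7-1 replicates 1 and 2 had 2.48 and 5.28 FPKM and the library labelled replicate 3 had 23.2 FPKM, against 33.8, 28.1 and 27 FPKM in Y478. Under moderate drought-exogenous ABA Y7-1 had 2.43, 2.21 and 2.45 FPKM, against 44.4, 51.5 and 56.1 FPKM in Y478. The log2 fold change over the 4 treatments was -3.35 ± 0.26 (SE, adjusted p = 8.3e-08), and -3.56 without the library that stood apart (adjusted p = 5.51e-11). It passed under every treatment but moderate drought (log2 fold change -2.02 ± 0.53, adjusted p = 0.0612), where it passed without that library (-2.85, adjusted p = 0.000162).

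bHLH25, bHLH148 and bHLH5 were lower in Y7-1 as well. bHLH25 (Zm00001d044242, chromosome 3, 222847014 to 222848459), a relative of bHLH87, had 3.5, 3.52 and 3.51 FPKM in Y7-1 under control, against 17.7, 18.4 and 17.7 FPKM in Y478. Its log2 fold change over the treatments was -2.18 ± 0.26 (adjusted p = 3.48e-06), and -2.34 without the library that stood apart. bHLH148 (Zm00001d002288, chromosome 2, 9618257 to 9621258) is a relative of SPATULA, which shapes the carpel margin and restrains leaf growth. Under control it had 0.684, 0.588 and 0.808 FPKM in Y7-1, against 4.64, 4.65 and 5.97 FPKM in Y478, and under control-exogenous ABA 1.1, 0.874 and 0.0634 FPKM in Y7-1, against 8.39, 7.27 and 8.06 FPKM in Y478. The log2 fold change over the treatments was -1.84 ± 0.25 (adjusted p = 1.18e-05), and -2.03 without that library. Both genes passed under control, control-exogenous ABA and moderate drought-exogenous ABA, and under these 3 treatments the lines did not overlap. The call of bHLH148 under moderate drought-exogenous ABA (-1.62 ± 0.50, adjusted p = 0.0227) was lost on leaving out any of 4 of the 6 libraries (adjusted p up to 0.0763).

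bHLH5 (Zm00001d037098, chromosome 6, 112038762 to 112044232) has no description beyond its domain. Its Y7-1 plants had 1.58 to 17.1 FPKM with a median of 3.76 FPKM over the 12, against 9.46 to 23.2 FPKM with a median of 15.3 FPKM in Y478. The Y7-1 value of 17.1 FPKM is that of the library that stood apart, and the next highest was 6.55 FPKM. The log2 fold change was -1.68 ± 0.22 (adjusted p = 9.31e-06), or -1.85 without that library, and it passed under the same 3 treatments. Zm00001d028916 (chromosome 1, 51361873 to 51362499), a relative of bHLH148 of Arabidopsis, had 0.721, 0.607 and 0.578 FPKM in Y7-1 given moderate drought-exogenous ABA, against 6.94, 4.91 and 6.12 FPKM in Y478 (log2 fold change -2.50 ± 0.38, adjusted p = 0.000468). Over the treatments it was at -1.69 ± 0.19 (adjusted p = 1.76e-06), and -1.82 without the library that stood apart. bHLH144 passed under both treatments with ABA and under neither without it. It had 3.72, 3.48 and 1.78 FPKM in Y7-1 under control-exogenous ABA, against 16.7, 9.44 and 15.6 FPKM in Y478 (log2 fold change -2.05 ± 0.34, adjusted p = 0.000507). Whether its difference between the lines itself changed with ABA was not tested.

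Among the genes higher in Y7-1, bHLH54, bHLH38 and Zm00001d028664 were low in Y478. bHLH54 (Zm00001d011847, chromosome 8, 162652002 to 162656985) had 1.99, 4.23 and 86.9 FPKM in Y7-1 under control, against 0, 0 and 0.0757 FPKM in Y478. The 3 Y7-1 plants thus differed widely among themselves, and replicate 3 carried most of the signal. Under control-exogenous ABA it had 1.34, 11.4 and 10.3 FPKM in Y7-1 and 0 in all 3 Y478 plants. Under moderate drought the Y7-1 plants had 0, 2.91 and 0 FPKM. The gene was read 10654 times in the 12 Y7-1 libraries and 25 times in the 12 of Y478. It reached the minimum in 8 Y7-1 libraries and in no Y478 library (at most 0.138 FPKM), so the levels are given as a description, with no test of the line.

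bHLH38 (Zm00001d048786, chromosome 4, 5537283 to 5538661) was read 176 times in Y7-1 and 2 times in Y478. Every Y7-1 library but the one labelled moderate drought replicate 3, which was at 0, had 0.295 to 3.66 FPKM, against 0 in 11 of 12 Y478 libraries and 0.166 FPKM in the other. It too reached the minimum in Y7-1 only, in 9 libraries, and its levels are a description. Zm00001d028664 (chromosome 1, 42281902 to 42284171) is a relative of bHLH112, which in Arabidopsis acts in salt and drought responses. It had 3.73, 1.65 and 2.15 FPKM in Y7-1 under control, against 0.232, 0.0822 and 0.0844 FPKM in Y478 (log2 fold change 2.20 ± 0.38). Under moderate drought-exogenous ABA it had 2.13, 2.42 and 1.49 FPKM in Y7-1, against 0.244, 0.0397 and 0.202 FPKM in Y478 (1.92 ± 0.38). The lines did not overlap in either treatment. The minimum was reached in 10 Y7-1 libraries and 1 of Y478. The gene was thus taken in through Y7-1, its line calls follow in part from the minimum, and its levels are a description.

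bHLH60 and bHLH156 were read well in both lines and were higher in Y7-1. bHLH60 (Zm00001d013130, chromosome 5, 5228815 to 5231062) is a relative of PIF4, which promotes elongation growth in warmth and shade. Under moderate drought-exogenous ABA it had 30.2, 37.7 and 33.7 FPKM in Y7-1, against 7.78, 6.36 and 5.12 FPKM in Y478 (log2 fold change 2.32 ± 0.55, adjusted p = 0.0052). Under control-exogenous ABA the lines overlapped, at 9.23, 14.3 and 44.9 FPKM in Y7-1 against 13.7, 20.5 and 6.21 FPKM in Y478 (0.57 ± 0.55, adjusted p = 0.49). bHLH156 (Zm00001d017908, chromosome 5, 209974275 to 209978114) is a relative of BIM3, a partner of the brassinosteroid factor BES1. It had 8.83 to 25.5 FPKM in Y7-1 with a median of 15.7 FPKM, against 5.35 to 10.6 FPKM in Y478 with a median of 7.71 FPKM. The log2 fold change of 0.96 ± 0.12 over the treatments (adjusted p = 4.51e-06) was 0.95 without the library that stood apart, and it passed under every treatment but control.

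**Figure D3:**
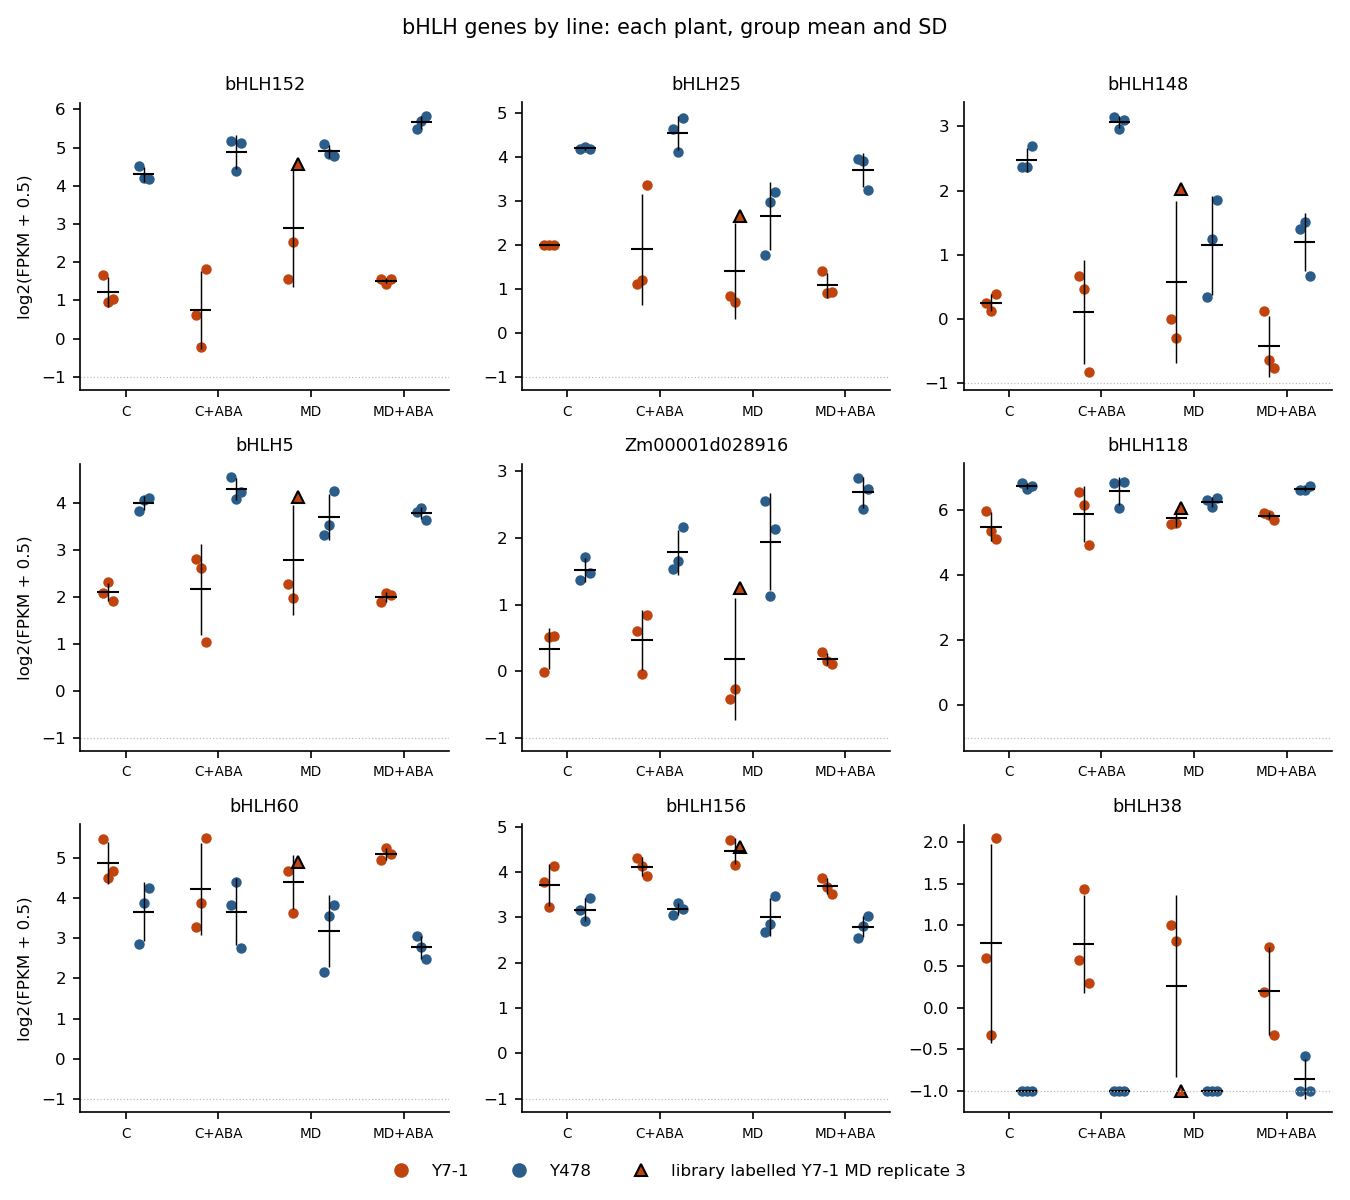
Level of 9 bHLH genes in each plant, as log2(FPKM + 0.5) on the y axis, under control (C), control-exogenous ABA (C+ABA), moderate drought (MD) and moderate drought-exogenous ABA (MD+ABA), with Y7-1 left (red) and Y478 right (blue). Lines are the mean and SD of 3 plants, the dotted line is 0 FPKM, and the triangle is the library labelled Y7-1 MD replicate 3, which has 23.2 FPKM of bHLH152 where the other Y7-1 plants have at most 5.28 FPKM.

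By role, the counts over the treatments are a description, beside 24.6% of all tested genes higher, 24.3% lower and 48.9% called in either direction. The iron group had 4 of 8 genes lower in Y7-1 and 0 higher (median log2 fold change -0.30), a share of 50% that is close to that of all genes. The 4 were bHLH118, bHLH128 and bHLH129, relatives of bHLH104, and Zm00001d048901, a relative of bHLH47 (POPEYE), which restrains iron transport genes in Arabidopsis. Without the library that stood apart bHLH164 was added as higher. bHLH118 had 63.1, 41.1 and 34.2 FPKM in Y7-1 under control, against 114, 101 and 108 FPKM in Y478 (log2 fold change -1.26 ± 0.31, adjusted p = 0.0126). That call was lost without Y478 control replicate 1 or Y7-1 control replicate 3 (adjusted p up to 0.0644), while the average over the treatments, -0.83 ± 0.15 (adjusted p = 0.000273), held on leaving out each library (-0.86 without the library that stood apart). Of 19 tested genes named for iron uptake or storage, 6 were higher and 4 lower in Y7-1, or 6 and 5 without that library.

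In the AKS and FBH group, whose Arabidopsis members promote stomatal opening and flowering, 4 of 6 genes were lower in Y7-1 and 0 higher (median -0.44), and 5 were lower without the library that stood apart. The counts of the bHLH112 and bHLH133 groups were the same without it. bHLH80 was at 9.21, 10.1 and 7.13 FPKM in Y7-1 given moderate drought-exogenous ABA, against 25.4, 18 and 19.7 FPKM in Y478 (log2 fold change -1.21 ± 0.24, adjusted p = 0.00162). The bHLH112 group had 4 of 6 genes lower and 1 higher. The higher one was Zm00001d028664, whose call follows in part from the minimum. The lowest relative to Y478 was Zm00001d038612, at 2.33, 2.68 and 2.74 FPKM in Y7-1 under control-exogenous ABA, against 8.93, 5.58 and 7.56 FPKM in Y478 (-1.33 ± 0.33, adjusted p = 0.00788). The bHLH133 relatives had 3 of 4 genes lower and 0 higher. Of these Zm00001d010416 had 3.29, 3.28 and 2.17 FPKM in Y7-1 given moderate drought-exogenous ABA, against 13.2, 10.5 and 22.5 FPKM in Y478 (-2.17 ± 0.42, adjusted p = 0.00151).

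The CIB and BEE group had 5 of 12 genes higher in Y7-1 and 0 lower, with or without the library that stood apart (median 0.33 with it and 0.31 without it). The share called, 41.7%, is under the 48.9% of all tested genes, of which 24.6% were higher. In Arabidopsis CIB1 binds a blue light receptor and promotes flowering, and BEE factors act in brassinosteroid growth. bHLH136 had 11.8, 24.6 and 20.2 FPKM in Y7-1 under control-exogenous ABA, against 8.13, 5.9 and 6.24 FPKM in Y478 (log2 fold change 1.37 ± 0.30, adjusted p = 0.0037). bHLH121 had 3.81, 12.1 and 20.7 FPKM there in Y7-1, against 2.93, 1.08 and 5.07 FPKM in Y478, which overlap (adjusted p = 0.0469, lost on leaving out any of 4 of the 6 libraries, up to 0.193), and averaged 1.08 ± 0.31 over the treatments (adjusted p = 0.00679), or 1.14 without the library that stood apart. Of the jasmonate group 2 of 3 genes were higher, bHLH145, a relative of MYC5 (0.61 ± 0.20, adjusted p = 0.0179, and a log2 change of 0.66 without that library), and Zm00001d039271, a relative of bHLH3, one of the JAM repressors (0.42 ± 0.10, adjusted p = 0.00212, and a log2 change of 0.46 without it). Of 29 tested ZIM genes, whose JAZ members hold MYC factors inactive, 7 were higher and 8 lower, or 7 and 9 without it.

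Of the 8 phytochrome-interacting and SPATULA relatives 1 was higher (bHLH60) and 2 lower (bHLH148 and bHLH68) in Y7-1, with or without the library that stood apart. bHLH68 was lower under moderate drought-exogenous ABA only, at 4.64, 4.81 and 4.94 FPKM in Y7-1 against 14, 10.5 and 16.3 FPKM in Y478 (-1.39 ± 0.27, adjusted p = 0.00163), and its call on the average (-0.35 ± 0.14, adjusted p = 0.0405) was lost on leaving out any of 15 of the 24 libraries (adjusted p up to 0.0781, and 0.0279 without the library that stood apart). Of 5 tested phytochrome genes, the light receptors that act on these factors, 2 were higher in Y7-1 and 0 lower, or 3 and 0 without it. The 1 tested DELLA gene, Zm00001d044065, whose product binds such factors, was lower (-1.10 ± 0.25, adjusted p = 0.00158, and a log2 change of -1.11 without it). PIF3 (Zm00001d008205), outside the rule by its name, was at -0.52 ± 0.19 (adjusted p = 0.0266, and a log2 change of -0.62 without it). In the root hair group 3 of 6 were lower and 0 higher, with or without it, bHLH152, bHLH88 and bHLH39. bHLH39 had 11.3, 14.2 and 15.9 FPKM in Y7-1 under control-exogenous ABA, against 29.1, 23.5 and 25.4 FPKM in Y478 (-0.90 ± 0.18, adjusted p = 0.00188).

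Genes of leaf cell types also differed between the lines, at shares on both sides of the 48.9% of all tested genes. Summed bundle sheath genes were at 3862 to 18575 FPKM in Y7-1 (median 5776) and 6305 to 17890 FPKM in Y478 (median 9459), with 0 of 10 genes higher and 4 lower, with or without the library that stood apart. Of 25 mesophyll C4 genes 6 were higher and 9 lower, or 7 and 9 without it. Of 14 light harvesting genes 1 was higher and 4 lower, and of 19 genes of dividing cells 2 were higher and 3 lower. Their part in the results was not tested. In bulk leaves, fewer cells of a type and less RNA per cell cannot be told apart.

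**Figure D4:**
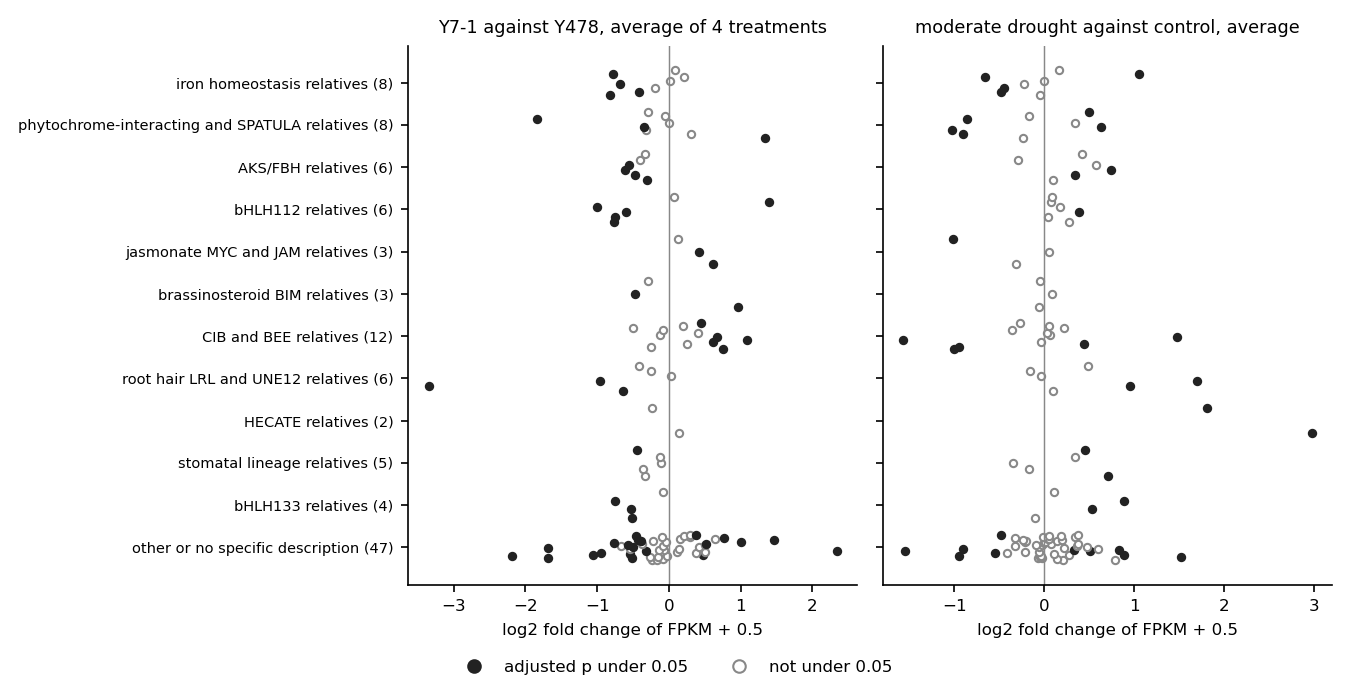
Log2 fold change of each bHLH gene (points) by role group (rows, number of genes in parentheses), for Y7-1 against Y478 averaged over 4 treatments (left) and for moderate drought against control averaged over the lines and ABA levels (right). Filled points have an adjusted p under 0.05. On the left all filled points of the CIB and BEE group lie above 0 (5 genes) and all of the iron group below 0 (4 genes), and on the right both HECATE relatives lie above 1.5.

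The second comparison asks which bHLH genes respond to moderate drought. Relatives of HECATE2, bHLH135 and bHLH20, rose most, followed by bHLH88, bHLH150 and Zm00001d021086, and bHLH121, bHLH43 and bHLH136 fell. Averaged over both lines and ABA levels, 36 of the 110 genes passed the test, 21 higher and 15 lower under drought, or 32.7% against 27.9% of all tested genes. Of all genes 14.5% were higher and 13.4% lower. The median log2 fold change of the bHLH genes was 0.0563 and that of all tested genes -6.92e-05. Without the library that stood apart the count was 35 (21 higher and 14 lower, background 26.9%, or 14.1% higher and 12.8% lower). Of the 110 genes, bHLH127, Zm00001d005750 and bHLH161 reached the minimum in drought plants only and bHLH51 in control plants only, and the calls of bHLH161 and bHLH51 follow in part from that. No gene had all 12 drought plants outside the range of the 12 control plants, with or without that library (background 0.551% and 0.605%).

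Within the lines, 6 genes passed in Y478 moderate drought against control (5 higher and 1 lower, 5.45%, background 5.98%, or 3.34% higher and 2.64% lower) and 16 in Y478 with ABA (9 higher and 7 lower, 14.5%, background 9.66%, or 5.84% higher and 3.82% lower). In Y7-1 2 passed without ABA (bHLH88 higher and bHLH136 lower, 1.82%, background 0.713%, or 0.288% higher and 0.425% lower). With ABA 17 passed in Y7-1 (10 higher and 7 lower, 15.5%, background 11.8%, or 6.56% higher and 5.19% lower). Without the library that stood apart 0 passed in Y7-1 without ABA, against 0.0834% of all tested genes. There 20 bHLH genes were at an unadjusted p under 0.05. The difference of the drought response between the lines was tested itself. No gene of the 110 passed without ABA (background 0.00834%) or with ABA (background 0.0292%), and limma-voom also called 0. At an unadjusted p under 0.05 there were 14 and 19 bHLH genes. All backgrounds are shares at an adjusted p, and the unadjusted counts have no such share beside them. The counts without averaging depend on single libraries of the compared groups. The shares of all tested genes on these removals were not counted, save for the library that stood apart. In Y478 they ran from 0, without moderate drought replicate 1, to 7 on leaving out 1 library at a time, and in Y478 with ABA from 2, without moderate drought-exogenous ABA replicate 3, to 16. In Y7-1 they ran from 0, without control replicate 3 or the library labelled moderate drought replicate 3, to 5, without moderate drought replicate 1, and in Y7-1 with ABA from 8, without moderate drought-exogenous ABA replicate 1, to 23.

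Both HECATE relatives rose. In Arabidopsis HECATE factors act in the growth of the pistil and the stem cells of the shoot tip. bHLH135 (Zm00001d031781, chromosome 1, 201578936 to 201579691) had 16.3, 38.8 and 3.36 FPKM in Y7-1 moderate drought-exogenous ABA, against 0, 0 and 0.291 FPKM in Y7-1 control-exogenous ABA. In Y478 it had 13.7, 6.46 and 7.03 FPKM under moderate drought-exogenous ABA, against 0.661, 0.213 and 0.678 FPKM under control-exogenous ABA. Without ABA Y7-1 had 14.5, 3.73 and 2.83 FPKM under drought against 3.11, 0.693 and 0 FPKM under control, and Y478 had 0.891, 7.3 and 6.33 FPKM against 0.449, 0.0796 and 1.88 FPKM. The groups thus overlapped without ABA and not with it. The log2 fold change on the scale with 0.5 added was 2.97 ± 0.42 over all (adjusted p = 5.63e-05), and 3.08 without the library that stood apart.

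bHLH20 (Zm00001d005841, chromosome 2, 190556326 to 190557054) had a median of 2.83 FPKM over the 12 drought plants (range 1.33 to 13 FPKM), against 0.612 FPKM over the 12 control plants (range 0 to 2.31 FPKM). Its log2 fold change was 1.81 ± 0.24 (adjusted p = 2.86e-05), and 1.88 without the library that stood apart. In Y7-1 with ABA it had 2.34, 13 and 4.83 FPKM under drought, against 0.158, 0.49 and 0 FPKM under control (3.10 ± 0.48, adjusted p = 0.000653). In Y478 with ABA the plants overlapped, at 2.29, 5.18 and 2.75 FPKM against 0.343, 1.03 and 2.31 FPKM (1.28 ± 0.48, adjusted p = 0.1).

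bHLH88 (Zm00001d000291, contig B73V4_ctg14, 71867 to 75016), another bHLH69 relative, passed in 3 of the 4 drought contrasts, of which only Y478 with ABA held on leaving out each library. In Y478 it had 11.2, 6.38 and 2.74 FPKM under moderate drought, against 0.863, 1.27 and 1.74 FPKM under control (log2 fold change 1.87 ± 0.39, adjusted p = 0.00916), and with ABA 4.68, 5.01 and 8.44 FPKM, against 0.586, 0.566 and 1.03 FPKM (2.39 ± 0.39, adjusted p = 0.00154). In Y7-1 without ABA it had 1.99, 5.08 and 3.49 FPKM under drought, against 0.629, 0.461 and 0.533 FPKM under control (1.88 ± 0.39, adjusted p = 0.0322, and 0.111 without the library labelled moderate drought replicate 3). These 3 contrasts showed no overlap. In Y7-1 with ABA the values were 0.825, 1.02 and 1.4 FPKM under drought, against 0.304, 0.314 and 0.947 FPKM under control, and overlapped (0.67 ± 0.39, adjusted p = 0.283). Averaged, the change was 1.70 ± 0.19 (adjusted p = 6e-06), and 1.69 without the library that stood apart. bHLH152, the relative of the same factor that differed most between the lines, also rose on average (0.95 ± 0.26, adjusted p = 0.0113, and a log2 change of 0.74 without that library).

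bHLH150 (Zm00001d020705, chromosome 7, 129461161 to 129461889), described only as a DNA binding protein, had 19.4, 33.9 and 26.7 FPKM in Y7-1 moderate drought-exogenous ABA, against 6.25, 0.981 and 1.11 FPKM in Y7-1 control-exogenous ABA (3.39 ± 0.54, adjusted p = 0.000822). In Y478 with ABA it had 25, 8.29 and 5.42 FPKM under drought, against 5.14, 3.02 and 6.43 FPKM under control, which overlap (1.09 ± 0.54, adjusted p = 0.221). Zm00001d021086 (chromosome 7, 142451964 to 142454359), a relative of bHLH137 in the CIB group, had 4.42, 7.17 and 4.35 FPKM in Y7-1 moderate drought-exogenous ABA, against 0.267, 1.19 and 0.623 FPKM in Y7-1 control-exogenous ABA (2.32 ± 0.42, adjusted p = 0.00214). Over all drought plants its median was 3.22 FPKM, against 0.728 FPKM over the control plants (1.48 ± 0.21, adjusted p = 6.26e-05, and a log2 change of 1.63 without the library that stood apart). bHLH132 had 8.24, 8.53 and 8.56 FPKM in Y478 under moderate drought, against 4.22, 4.07 and 3.26 FPKM in Y478 under control, and averaged 0.89 ± 0.15 (adjusted p = 0.000254), or 0.82 without that library.

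**Figure D5:**
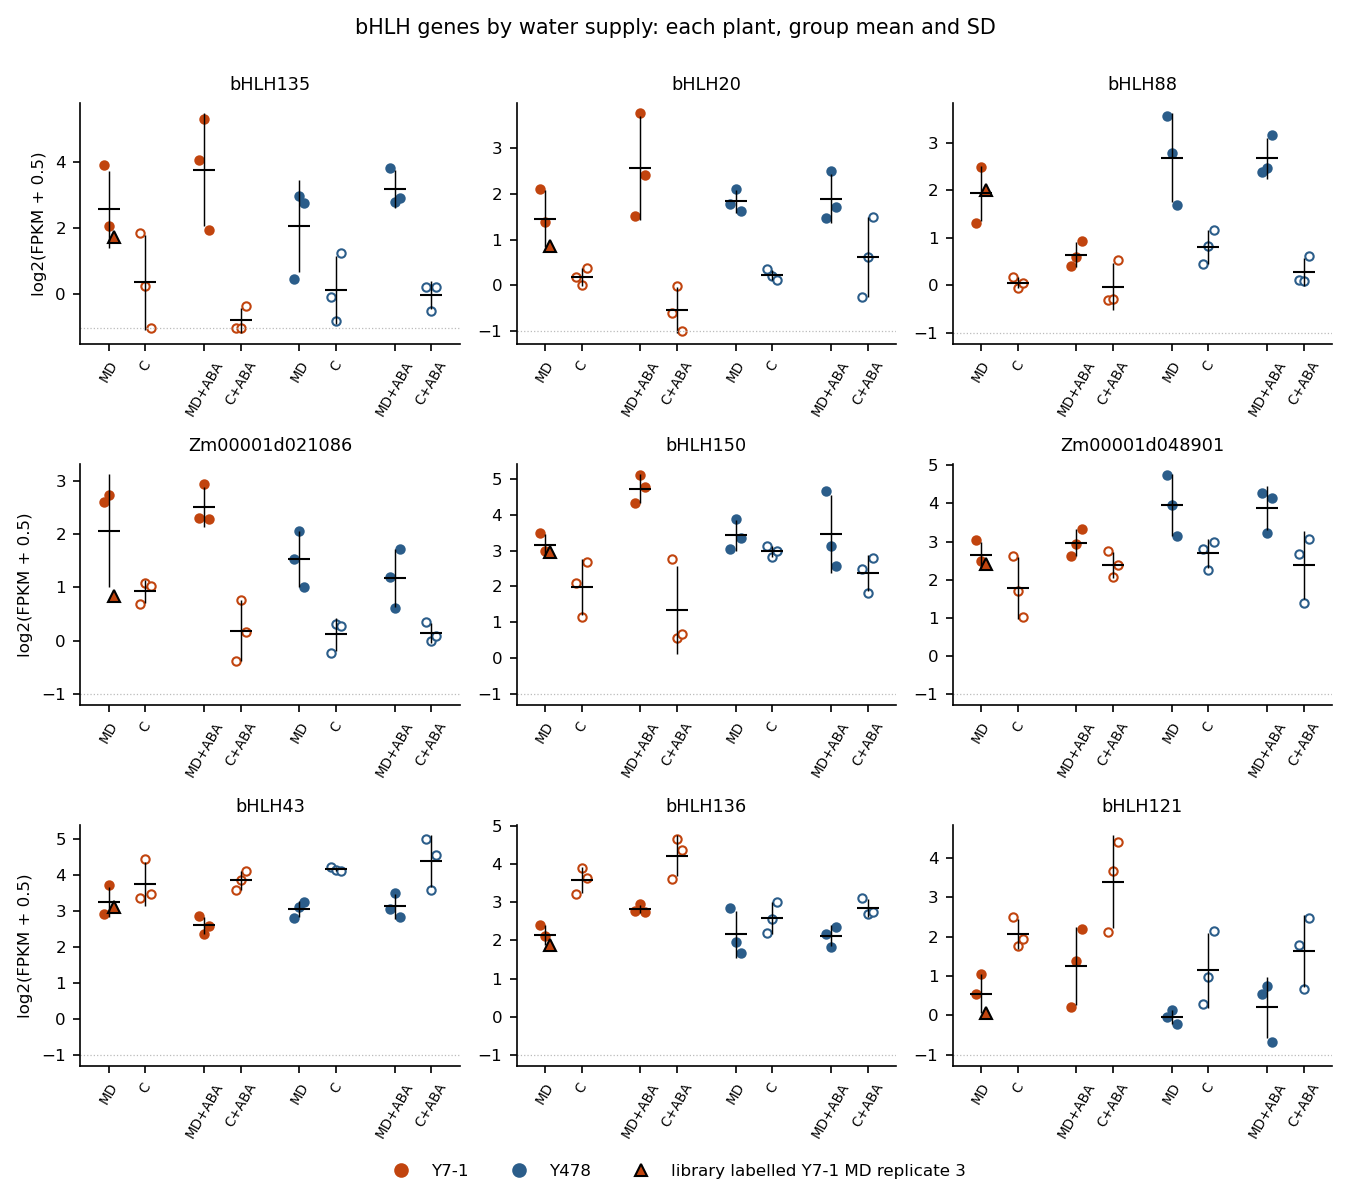
Level of 9 bHLH genes in each plant, as log2(FPKM + 0.5) on the y axis, with moderate drought (MD, filled) left of its control (C, open), without and with ABA, for Y7-1 (red) and Y478 (blue). Lines are the mean and SD of 3 plants and the triangle is the library labelled Y7-1 MD replicate 3. bHLH135 and bHLH20 lie higher under drought, while bHLH43, with a median of 7.40 FPKM under drought and 16.7 FPKM under control, lies lower.

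Among the genes that fell, bHLH43 (Zm00001d033267, chromosome 1, 256575051 to 256579029) is named PIL5, a factor that in Arabidopsis holds back seed germination in the dark. In Y478 it had 6.42, 8.14 and 8.91 FPKM under moderate drought, against 18, 17 and 16.7 FPKM under control, with no overlap. In Y7-1 with ABA it had 6.67, 4.63 and 5.48 FPKM under drought, against 11.4, 13.9 and 16.7 FPKM under control. The average change was -1.03 ± 0.16 (adjusted p = 0.000132), and -1.01 without the library that stood apart. It passed in 3 of the 4 drought contrasts, Y7-1 without ABA being the exception (-0.50 ± 0.32, adjusted p = 0.446), and each of the 3 calls was lost on leaving out some library (adjusted p up to 0.205 in Y478, 0.124 in Y478 with ABA and 0.0798 in Y7-1 with ABA). In its group 2 of 8 genes rose and 3 fell, the other two that fell being bHLH47 and bHLH148. That is beside 14.5% and 13.4% of all tested genes, and without the library that stood apart 1 rose and 3 fell, bHLH125 no longer passing. PIF3 was at 0.89 ± 0.19 (adjusted p = 0.00159), or 0.80 without it.

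bHLH136 and bHLH121 of the CIB and BEE group, given above as higher in Y7-1, fell under drought. Zm00001d021086 of the same group rose, and the drought count of the whole group is not given here. bHLH136 had 4.79, 3.8 and 3.2 FPKM in Y7-1 under moderate drought, against 8.83, 14.3 and 11.8 FPKM in Y7-1 under control (-1.45 ± 0.30, adjusted p = 0.0322), and 6.37, 7.24 and 6.16 FPKM in Y7-1 moderate drought-exogenous ABA, against 11.8, 24.6 and 20.2 FPKM in Y7-1 control-exogenous ABA (-1.39 ± 0.30, adjusted p = 0.00658). Without ABA the call was lost on leaving out Y7-1 control replicate 2 or 3 or Y7-1 moderate drought replicate 2 or 3 (adjusted p up to 0.128). It also passed on average (adjusted p = 9.64e-05), at -0.97 without the library that stood apart (adjusted p = 0.000225). bHLH121 (Zm00001d006065, chromosome 2, 197131272 to 197133841) had 0.126 to 4.05 FPKM over the drought plants (median 0.808 FPKM), against 0.723 to 20.7 FPKM over the control plants (median 3.57 FPKM), a change of -1.57 ± 0.31 (adjusted p = 0.000906), and -1.51 without that library. bHLH54 fell by 1.55 ± 0.48 on the log2 scale (a log2 change of -1.44 without that library), a call that limma-voom did not make (adjusted p = 0.43). It reached the minimum in 6 control and 2 drought libraries, all of Y7-1. The gene was thus taken in through the control plants of 1 line, so this change follows in part from the minimum and is a description.

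In the iron group 3 of 8 genes fell, bHLH128, bHLH172 and bHLH164, and 1 rose, Zm00001d048901, with or without the library that stood apart. Beside this, 13.4% of all tested genes were lower under drought and 14.5% higher. The ILR3 relative bHLH172 had 19, 20 and 23.1 FPKM in Y7-1 moderate drought-exogenous ABA, against 45.9, 43.3 and 57.4 FPKM in Y7-1 control-exogenous ABA (-1.21 ± 0.16, adjusted p = 0.000212). bHLH164, the other ILR3 relative, averaged -0.66 ± 0.11 (adjusted p = 0.000211, and a log2 change of -0.59 without that library) and bHLH128 -0.48 ± 0.08 (adjusted p = 0.000238, and a log2 change of -0.48 without it). The POPEYE relative Zm00001d048901 had 26.5, 15.1 and 8.37 FPKM in Y478 under moderate drought, against 6.54, 4.28 and 7.48 FPKM in Y478 under control, and averaged 1.05 ± 0.23 (adjusted p = 0.00238), or 1.08 without it. Of 19 tested iron uptake and storage genes 1 rose and 2 fell on average, with or without it.

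Of the AKS and FBH group 2 of 6 genes rose and 0 fell, bHLH6 with 0.75 ± 0.19 (adjusted p = 0.00584, and a log2 change of 0.71 without the library that stood apart) and bHLH80 with 0.35 ± 0.12 (adjusted p = 0.0348, lost on leaving out any of 10 of 24 libraries, up to 0.0649, and a log2 change of 0.26 without that library). Of the 5 stomatal relatives bHLH175 and bHLH161 passed as higher, with or without it. The counts of both groups stand beside 14.5% of all tested genes higher under drought and 13.4% lower. bHLH175 is a relative of ICE2, which acts in cold response and the stomatal lineage. It had 24.6, 5.9 and 3.96 FPKM in Y478 under moderate drought, against 2.65, 2.5 and 3.62 FPKM in Y478 under control, and averaged 0.71 ± 0.20 (adjusted p = 0.0134, a log2 change of 0.73 without that library, lost with limma-voom at 0.0502). bHLH161 reached the minimum in 3 drought libraries of Y478 and in no other, so its levels are a description. It was at 0.899, 0.438 and 0.647 FPKM in Y478 moderate drought-exogenous ABA, against 0 in the 3 plants of Y478 control-exogenous ABA, and at 0 in every Y7-1 library but 2 of the control. The bHLH161 values rest on 80 reads in Y478 and 3 in Y7-1.

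Genes of the stomatal lineage were found by the names SPEECHLESS, MUTE, FAMA and EPIDERMAL PATTERNING FACTOR. SPEECHLESS, MUTE and FAMA are bHLH factors themselves, so the list is not apart from the family. Summed, these genes were at 4.56 to 16.2 FPKM in drought plants (median 10.35) and 1.94 to 8.48 FPKM in control plants (median 4.97). Of the 3 tested 2 rose, with or without the library that stood apart, while 8 of the 18 in the list were at 0 in every library. Summed mesophyll C4 genes were at 3555 to 9208 FPKM in drought plants (median 6580) and 8230 to 14624 FPKM in control plants (median 10732), with 4 of 25 genes higher and 10 lower, or 5 and 11 without that library. Of 10 bundle sheath genes 0 were higher and 5 lower, or 0 and 4 without it. Of all tested genes 14.5% were higher and 13.4% lower under drought, or 14.1% and 12.8% without that library. The part of these lists in the bHLH results was not tested.

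The third comparison asks what the ABA spray changed. No bHLH gene passed in Y478 under control or under moderate drought, in Y7-1 under control, or on average (8, 10, 13 and 13 of 110 at an unadjusted p under 0.05, and 0 with limma-voom). Of all tested genes 0.00417%, 0.00417%, 0.0375% and 0.0209% were called in these 4 comparisons at an adjusted p under 0.05. In Y7-1 under moderate drought 24 bHLH genes were at an unadjusted p under 0.05. The share of all tested genes at an unadjusted p was not counted, so the unadjusted counts are not read as a trait of the family. Of the 110, 1 gene passed there (background 0.163% at an adjusted p). It was bHLH97 (Zm00001d048309, chromosome 9, 154303194 to 154304565), with 3.18, 5.94 and 2.42 FPKM in Y7-1 moderate drought-exogenous ABA, against 0.0921, 0.271 and 0.673 FPKM in Y7-1 moderate drought. The groups did not overlap, and the log2 fold change was 2.34 ± 0.40 (adjusted p = 0.0294), or 2.60 without the library that stood apart (adjusted p = 0.0224, background 0.0792%, or 0.0584% higher). The call was lost without Y7-1 moderate drought-exogenous ABA replicate 2 or 3 (adjusted p up to 0.181) and with limma-voom (adjusted p = 0.0602). Without Y7-1 moderate drought replicate 1 the number of bHLH genes called was 10. The share of all tested genes called on that removal was not counted, so this number is not read as a response of the family.

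Some genes varied widely among plants of 1 group. bHLH83 (Zm00001d040152, chromosome 3, 29271520 to 29275778) had 50.2, 74.7 and 96.2 FPKM in Y7-1 moderate drought-exogenous ABA, against 7.88, 19.6 and 0 FPKM in Y7-1 control-exogenous ABA, and passed there (4.03 ± 1.20, adjusted p = 0.0352) but not on leaving out 4 of the 6 libraries (adjusted p up to 0.154). Its Y7-1 plants under moderate drought had 43.5, 0 and 5.2 FPKM, against 12.6, 13.5 and 10.1 FPKM in Y478. The POPEYE relative Zm00001d029339 had 12.4, 9.71 and 112 FPKM in Y7-1 under control and 6.64, 5.16 and 9.49 FPKM in Y478. bHLH47, a PIF4 relative, had 10.1, 11.7 and 83.7 FPKM in Y7-1 under control-exogenous ABA, against 25.3, 25.5 and 8.79 FPKM in Y478. In both cases a single plant stood far above the others of its group. Over all comparisons, 77 of the 110 bHLH genes passed the test at least once and 33 never did. The like share of all tested genes was not counted, so these numbers are not read as a trait of the family.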

How the data were processed

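RNA of 24 single maize leaves was sequenced, 3 plants in each of 8 groups. Per the labels, the submitters' processing notes name HISAT2 2.0.5, an aligner, and the study's methods name none. The counter, annotation and FPKM tool are not given in the sources used here, and the labels also name a mouse build, which was set aside. The authors deposited 1 table of FPKM values. FPKM times gene length came out as whole multiples of 1 read for 100% of values (within 0.05), which gave recovered reads of 15762667 to 18428177 per library.

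FPKM values were tested as log2(FPKM + 0.5) with limma 3.58.1 in R 4.3.3 (8 group means in 1 fit, trended variance, two-sided), for genes at 0.5 FPKM or more in at least 3 libraries (23978 genes), with Benjamini-Hochberg adjustment over all of them. A gene passed at an adjusted p under 0.05. Since each group has 3 plants, all 8 groups shared 1 estimate per gene of the spread between plants, moderated toward the trend over all genes. The p-values rest on that estimate and not on the spread of the compared groups alone. Fold changes understate the change of genes of low level. The fit was tested on simulated data. The other fits used a pseudocount of 0.1 or 1, no filter, limma-voom on recovered reads, a replicate block, only the compared groups, and each library left out.

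Plots were drawn with matplotlib 3.10.9, and tables were made in Python 3.11.15 with pandas 2.3.3. The members, role groups and gene lists were chosen with earlier results of these data known. Genes were named by size of change among those that passed (up to 10 each way per comparison), level, variability, role, and mention in the study's tables. Genes that reached the minimum on 1 side only and bHLH125 were named after their values were seen. PIF3 and the DELLA gene were named as members of the lists for bHLH partners.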

Additional observations from a re-analysis of the deposited data

How the results depend on the processing

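Single-treatment counts depended on the settings. The shares of all tested genes under these other settings were not counted, so the changes are not read as particular to bHLH genes. With only the compared groups fitted, the number of bHLH genes that passed was 9 between the lines under control-exogenous ABA, 0 under moderate drought, 3 for drought in Y478, 3 in Y478 with ABA, 0 in Y7-1, 1 in Y7-1 with ABA, and 0 for ABA in Y7-1 under moderate drought. With no filter it was 1 between the lines under moderate drought and 3 for drought in Y478. Limma-voom gave 3 for drought in Y478, 1 in Y7-1 and 0 for ABA in Y7-1 under moderate drought. The replicate block gave 2 for drought in Y478 and moved no other count by over 1.5 times. Deviations of same-numbered plants of different groups correlated at -0.238 to 0.318 over 84 pairs (median 0.0013). Those of other pairs correlated at -0.348 to 0.339 over 168 pairs (median -0.0044). Same-numbered plants were thus no closer over all groups, and pairing within some groups was not tested.

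For the removals, 1 library of the compared groups was left out at a time. Shares of all tested genes were counted only without the library that stood apart. For the line the counts ran from 46 to 59 on average, 8 to 13 under control, 14 to 22 under control-exogenous ABA, 0 to 12 under moderate drought and 24 to 30 under moderate drought-exogenous ABA. For drought they ran from 32 to 39 on average, 0 to 7 in Y478, 2 to 16 in Y478 with ABA, 0 to 5 in Y7-1 and 8 to 23 in Y7-1 with ABA. For ABA they ran from 0 to 2 in Y7-1 under control, 0 to 10 in Y7-1 under moderate drought, 0 to 3 on average, and 0 to 0 in Y478 under either water level. Both interactions stayed at 0. Of the 53 line calls on average 44 held under every removal and setting, and of the 36 drought calls 27. The 53 include genes that reached the minimum in 1 line only (4 in Y7-1 and 2 in Y478) and Zm00001d028664. The 36 include bHLH161, bHLH51 and bHLH54. Calls of these genes follow in part from the minimum, and holding does not change that. The like share of all tested genes was not counted. No named call changed sign. Genes of low level limit the precision, since 1 read of a 1-kilobase gene was worth at least 0.0502 FPKM.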
